A study of Mus musculus with 10 samples.

Results

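NF-kB is a family of dimeric transcription factors that inhibitor proteins hold in the cytoplasm of resting cells. The 10 genes described here are 5 subunit genes (Nfkb1, Nfkb2, Rel, Rela and Relb) and 5 genes whose products restrain or feed back on the pathway (Nfkbia, Nfkbie, Nfkbiz, Tnfaip3 and Birc3). They were chosen by name, with earlier results of these data known, and 1 probe set was used per gene. Of the 10 genes, 9 had a named probe set, and all 9 entered the test, among 19176 tested named genes. Nfkb1 was not analysed here.

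The tumors were B16OVA, melanoma cells of the mouse line B16 made to express ovalbumin, grown under the skin of B6 mice (C57BL/6 and young females, per the methods). They were injected with BO-112, a complex of poly I:C, which mimics viral double-stranded RNA, with the carrier polyethylenimine, or with the vehicle, 5% glucose, and RNA was taken days after the second injection. Each group held 5 mice with 1 array each, and all values are log2 expression values of whole tumors after Robust Multichip Average (RMA) normalization. In such bulk samples, fewer cells of a type and less RNA per cell cannot be told apart.

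Double-stranded RNA is sensed by TLR3 in endosomes and by MDA5 and RIG-I in the cytosol, and all these sensors signal to the IkB kinases. The kinases mark IkB proteins for destruction, RelA and c-Rel dimers enter the nucleus, and among the genes they switch on are those of their own inhibitors, which closes a negative feedback loop. A slower, alternative arm runs through processing of the Nfkb2 product, which pairs with RelB.

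The promoters of several of these genes carry the binding site of the pathway itself, and they are shown here because the same genes are measured below. RefSeq windows of 300 bases around transcript starts (GRCm38.p6) were found for 7 of the 10 genes, with 10 windows in all (none was used for Nfkb1, Relb or Nfkbiz). The 250 bases before each start were searched on both strands for the kappaB consensus. It occurred in windows of 5 of the 7 genes, Nfkbia, Tnfaip3, Nfkbie, Rel and Nfkb2, and in none of Rela or Birc3. Of all 27025 genes with a window 4.46% had it. By windows, 7 of the 10 held it, beside 3.90% of all 32851 windows. The core of the interferon-stimulated response element (TTTC, any 2 bases, TTTC) was in 0 of the 10 windows and in 2.98% of all windows. Matches on opposite strands overlap, and a match is a description of the letters, not a bound site. In the stretches that follow, written 5′ to 3′ in the direction of transcription and ending at the base before the start (for Nfkb2, 15 bases before it), capitals mark the kappaB matches.
Nfkbia, chr12:55492648-55492767, minus strand: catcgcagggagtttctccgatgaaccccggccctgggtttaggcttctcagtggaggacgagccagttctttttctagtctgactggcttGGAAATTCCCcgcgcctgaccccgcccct
Tnfaip3, chr10:19015411-19015540, minus strand: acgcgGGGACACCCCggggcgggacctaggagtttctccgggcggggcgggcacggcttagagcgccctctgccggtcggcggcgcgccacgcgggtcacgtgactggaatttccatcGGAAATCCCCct
Nfkbie, chr17:45555570-45555699, plus strand: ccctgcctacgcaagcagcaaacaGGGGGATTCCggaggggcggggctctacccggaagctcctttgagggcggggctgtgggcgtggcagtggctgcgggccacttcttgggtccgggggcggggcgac
Rel, chr11:23770970-23771079, minus strand: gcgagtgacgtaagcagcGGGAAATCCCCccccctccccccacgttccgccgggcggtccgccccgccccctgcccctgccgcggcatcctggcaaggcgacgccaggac
Nfkb2, chr19:46304693-46304722, plus strand: gtcacGGGAATTCCCCccctcggggggccg
Nfkbia, Tnfaip3 and Nfkb2 have a match that lies within 30 bases of a start, 29 to 20 bases before it in Nfkbia, 12 to 3 in Tnfaip3 and 11 to 2 in Nfkb2. The last of these is not in the printed Nfkb2 stretch, whose matches span 39 to 29 bases before the start, and windows of later Nfkb2 starts hold matches at 236 to 227 and at 225 to 216. The matches of Nfkbie and Rel lie farther out, beginning 106 and 92 bases before the start.

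The comparison asked how these genes differed between the BO-112 and the Vehicle group. All 5 feedback genes rose, by 0.86 to 2.44 on the log2 scale, and 1 of the 4 measured subunit genes rose, Nfkb2. Thus 6 of 9 genes were called higher and 0 lower at a limma adjusted p under 0.05, where 5.22% of all 21792 probe sets were called, 2.43% higher (529) and 2.79% lower (609). After centring of every array at its own median the split was 436 higher and 855 lower, and 5 of the 9 genes were called higher, all but Nfkbie of the 6. The median log2 fold change was 1.74 over the feedback genes and 0.45 over the subunits, beside 0.01 over all tested named genes. The same 6 genes had no overlap between the groups, which held for 3.39% of all probe sets in the higher and 5.30% in the lower direction. At the study's own threshold, a B-statistic over 0, 3 of the 9 passed (Nfkbia, Tnfaip3 and Nfkbiz), beside 1.23% of probe sets called higher by that rule.

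**Figure D1:**
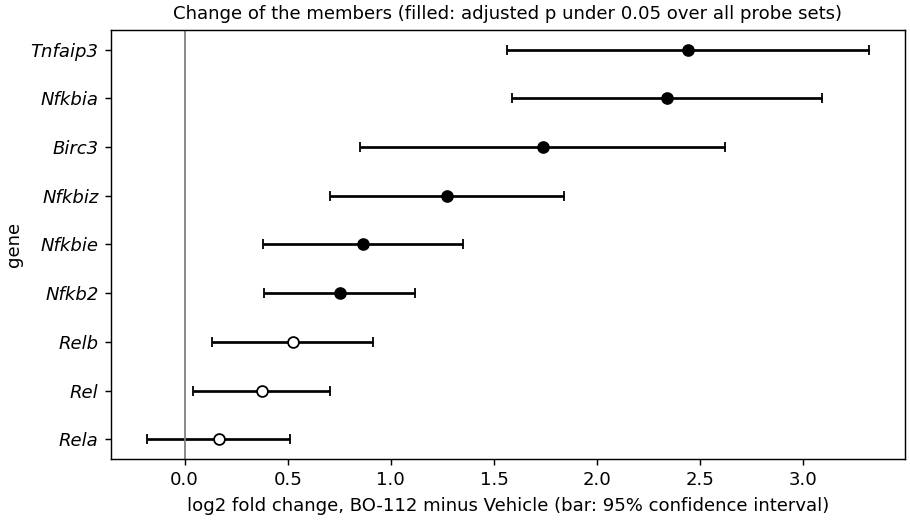
The x axis gives the log2 fold change of each gene (BO-112 minus Vehicle, 5 tumors each) with its 95% confidence interval from limma, and filled points passed an adjusted p of 0.05 over all probe sets. Tnfaip3 and Nfkbia lie farthest right, at 2.44 and 2.34, and among the 9 intervals that of Rela reaches below 0.

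Nfkbia encodes IkB-alpha, the classical inhibitor that binds RelA and c-Rel dimers and is resynthesised after each round of activation. It measured 9.63, 9.45, 9.69, 8.48 and 10.76 in BO-112 mice 1 to 5 and 7.77, 7.44, 6.90, 7.34 and 6.85 in Vehicle mice 1 to 5. Every BO-112 tumor stood above every Vehicle tumor, with BO-112 mouse 5 highest and BO-112 mouse 4 lowest of its group. The log2 fold change was 2.34 (SE 0.34, limma adjusted p = 0.00672), a 5.07-fold difference with a 95% confidence interval of 3.01 to 8.54. By the size of its rise Nfkbia ranked 82 among the tested named genes.

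Tnfaip3 encodes A20, a ubiquitin-editing enzyme that stops signals upstream of the IkB kinases. Its values were 8.74, 8.90, 9.46, 7.75 and 10.40 in BO-112 mice 1 to 5 and 7.16, 6.89, 6.41, 6.41 and 6.18 in Vehicle mice 1 to 5. The order of the BO-112 tumors at both ends was that of Nfkbia, mouse 5 at the top and mouse 4 at the bottom, without overlap with the Vehicle tumors. Its rise of 2.44 (SE 0.40) on the log2 scale, with a limma adjusted p of 0.00973, was the largest of the 9 genes and ranked 67 among the tested named genes. It corresponds to 5.42-fold, with an interval of 2.95 to 9.97. Nfkbia and Tnfaip3 passed in each of the 10 fits that left out 1 mouse.

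Birc3 encodes cIAP2, a ubiquitin ligase of TNF receptor complexes that is itself a target gene of NF-kB and holds the alternative arm in check. It stood at 9.04, 9.09, 9.72, 8.59 and 10.59 in BO-112 mice 1 to 5 and at 8.25, 7.76, 8.05, 7.88 and 6.41 in Vehicle mice 1 to 5. The gap between the groups was narrow, from 8.25 in Vehicle mouse 1 to 8.59 in BO-112 mouse 4, and Vehicle mouse 5 lay far below the other Vehicle tumors. Birc3 rose by 1.74 (SE 0.40, limma adjusted p = 0.0353), or 3.33-fold. The adjusted p of Birc3 was over 0.05, from 0.059 to 0.0794, without BO-112 mouse 1, 2 or 3 or Vehicle mouse 2, 3, 4 or 5, and without Vehicle mouse 5 the log2 fold change was 1.42.

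Nfkbiz encodes IkB-zeta, an atypical nuclear member of the IkB family that promotes transcription of a set of secondary response genes. It measured 7.98, 7.96, 8.32, 7.27 and 8.83 in BO-112 mice 1 to 5 and 7.15, 7.06, 6.72, 6.75 and 6.30 in Vehicle mice 1 to 5. BO-112 mouse 4 was only just above Vehicle mouse 1, and BO-112 mouse 5 was again highest. Nfkbiz rose by 1.27 on the log2 scale (SE 0.26, limma adjusted p = 0.0215), or 2.42-fold. Without BO-112 mouse 1 or Vehicle mouse 3, 4 or 5 the adjusted p of Nfkbiz was between 0.0506 and 0.0594.

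Nfkbie encodes IkB-epsilon, a slower classical inhibitor. It had values of 6.56, 6.26, 7.09, 6.57 and 7.63 in BO-112 mice 1 to 5 and 6.05, 5.85, 6.10, 5.81 and 5.997 in Vehicle mice 1 to 5. The groups did not overlap, but on 0 of 5 Vehicle arrays did Nfkbie exceed the 75th percentile of the negative control probe sets, so the size of its rise is uncertain. It rose by 0.86 on the log2 scale (SE 0.22, limma adjusted p = 0.0474), the smallest among the feedback genes. The adjusted p was between 0.0709 and 0.11 without BO-112 mouse 1 or 3 or without any 1 Vehicle mouse, 0.0581 with each array centred on its median and 0.0795 after quantile normalization.

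**Figure D2:**
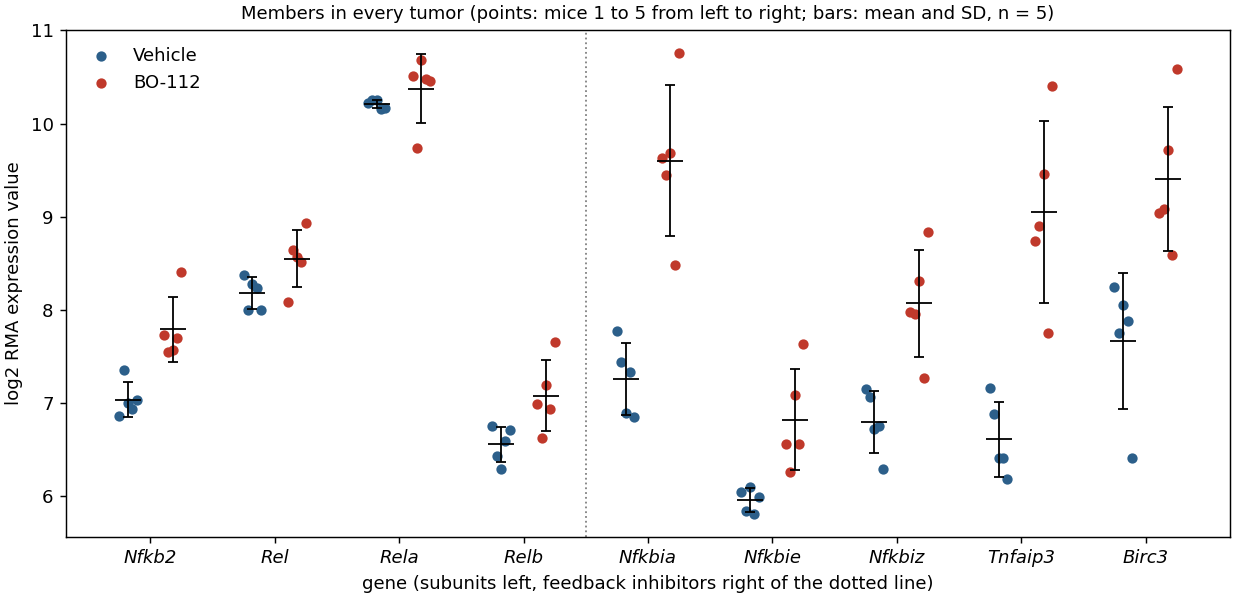
Each point is the log2 RMA value (y axis) of a gene (x axis) in a tumor, mice 1 to 5 from left to right within each group, with black bars for the group mean and SD (n = 5). The feedback genes and Nfkb2 do not overlap between groups, Rela is nearly flat in the Vehicle tumors, and BO-112 mouse 5 is the highest point of its group for every gene but Rela.

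Among the subunits, Nfkb2 encodes the precursor of the alternative arm. It measured 7.73, 7.55, 7.57, 7.70 and 8.40 in BO-112 mice 1 to 5 and 6.86, 7.35, 6.998, 6.94 and 7.04 in Vehicle mice 1 to 5. The BO-112 tumors apart from mouse 5 were close together, and all of them stood above Vehicle mouse 2, the highest Vehicle tumor. Nfkb2 rose by 0.75 on the log2 scale (SE 0.17, limma adjusted p = 0.0302), or 1.68-fold. The adjusted p of Nfkb2 lay between 0.0591 and 0.077 without BO-112 mouse 1 or Vehicle mouse 1, 3, 4 or 5.

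Relb, whose product pairs with the processed Nfkb2 protein, measured 6.99, 6.62, 7.20, 6.94 and 7.66 in BO-112 mice 1 to 5 and 6.75, 6.43, 6.30, 6.59 and 6.71 in Vehicle mice 1 to 5. BO-112 mouse 2 lay within the Vehicle range and the other BO-112 tumors above it. The log2 fold change was 0.52 with a 95% confidence interval of 0.14 to 0.91 (limma adjusted p = 0.0999), and with array weights, which give BO-112 mice 2 and 5 little weight, the limma adjusted p was 0.0268. Rel, the c-Rel gene of lymphoid and myeloid cells, ranged from 8.08 to 8.94 in BO-112 tumors (median 8.57) and from 7.997 to 8.38 in Vehicle tumors (median 8.23). Its groups overlapped through BO-112 mouse 1, the lowest BO-112 value, and its log2 fold change was 0.37 with an interval of 0.04 to 0.71 (limma adjusted p = 0.156).

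Rela, which encodes the main activating subunit of the classical dimer, stood at 10.51, 9.74, 10.69, 10.48 and 10.46 in BO-112 mice 1 to 5 and between 10.15 and 10.26 in all 5 Vehicle tumors. In BO-112 mouse 2 it was below every Vehicle tumor and in the other 4 above them all. The log2 fold change was 0.16 with a 95% confidence interval of -0.18 to 0.51 (limma adjusted p = 0.545). That interval lies below the Nfkb2 estimate of 0.75 but overlaps the Nfkb2 interval of 0.39 to 1.12, and the difference between these changes was not tested. Without BO-112 mouse 2 the log2 fold change of Rela was 0.32 (limma adjusted p = 0.0801).

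To ask whether members changed unequally, the difference between their log2 values was taken within each tumor, in 8 pairs, and compared between the groups with a two-sided exact permutation test over mice (p adjusted over the 8 pairs, smallest possible p 0.00794). Nfkbia rose by more than Rela, by 2.18 (exact permutation p = 0.00794, adjusted p = 0.0212). It also rose by more than its relative Nfkbiz, by 1.07, with the same exact permutation p and adjusted p. The difference from Nfkbie was 1.48 with the same p, but Nfkbie was not above the negative control level in the Vehicle tumors, so its size is uncertain. In these 3 pairs the groups did not overlap. Nfkbia and Tnfaip3 differed in change by -0.10 (exact permutation p = 0.508), with an SD over tumors of 0.27 in BO-112 and 0.17 in Vehicle. Tnfaip3 exceeded Birc3 by 0.70 (exact permutation p = 0.0476, adjusted p = 0.0952), and without Vehicle mouse 5 the adjusted p was 0.0317. Among the subunits, the changes of Relb and Rela differed by 0.36, those of Rel and Rela by 0.21 and those of Nfkb2 and Relb by 0.23, with adjusted exact permutation p of 0.19, 0.49 and 0.265. Probe sets can respond to the same change by different amounts, so these differences are between probe sets.

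**Figure D3:**
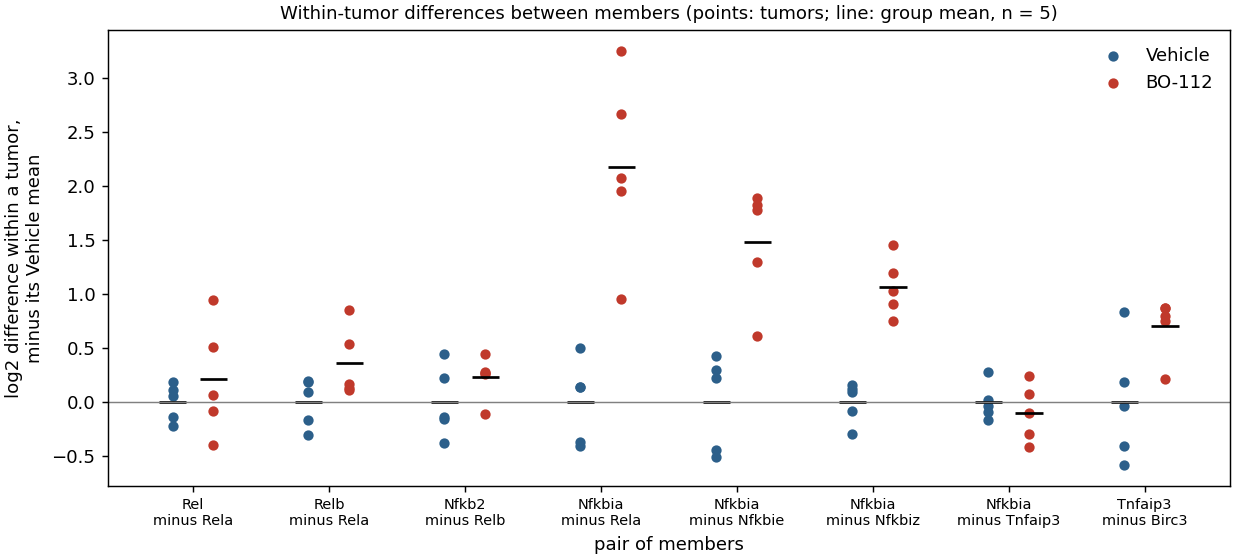
For each of 8 pairs of genes (x axis), points give the within-tumor difference of log2 RMA values minus the Vehicle mean of that difference (y axis), with black lines for group means (n = 5). The BO-112 tumors separate from the Vehicle tumors where Nfkbia is set against Rela, Nfkbie or Nfkbiz, and overlap with them where Nfkbia is set against Tnfaip3.

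BO-112 mouse 5 was the highest BO-112 tumor for 8 of 9 genes, the exception being Rela, whereas the low end was split. Mouse 4 was lowest for 4 genes (Nfkbia, Nfkbiz, Tnfaip3 and Birc3), mouse 2 for 4 (Nfkb2, Nfkbie, Rela and Relb) and mouse 1 for Rel. In the Vehicle group mouse 1 was highest for 6 of 9 genes, and each of the 5 mice was lowest for at least 1 gene, mouse 5 for 4. Leukocyte and macrophage markers varied in the same tumors. The mean of 6 such markers (Ptprc, Itgam, Adgre1, Csf1r, Lyz2 and Cd14) was 7.98, 8.07, 8.50, 7.48 and 9.62 in BO-112 mice 1 to 5 and 8.39, 8.29, 7.83, 8.12 and 6.37 in Vehicle mice 1 to 5, so the groups overlapped and BO-112 mouse 5 and Vehicle mouse 5 were the extremes. With Ly6c2 included, the mean over 7 markers was 7.79 to 9.97 in BO-112 and 6.19 to 8.45 in Vehicle tumors. The mean over the 5 feedback genes was 7.73 to 9.64 in BO-112 tumors, lowest in mouse 4, and 6.35 to 7.28 in Vehicle tumors. Fibroblast, endothelial and skeletal muscle markers had the same extremes, with list means highest in BO-112 mouse 5 (10.34, 7.77 and 11.06) and lowest in Vehicle mouse 5 (6.46, 6.41 and 6.25), and skin epithelium markers were highest in BO-112 mouse 2 (9.47). In each of these 4 lists 0 genes passed in limma and 0 had an unadjusted p under 0.05.

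**Figure D4:**
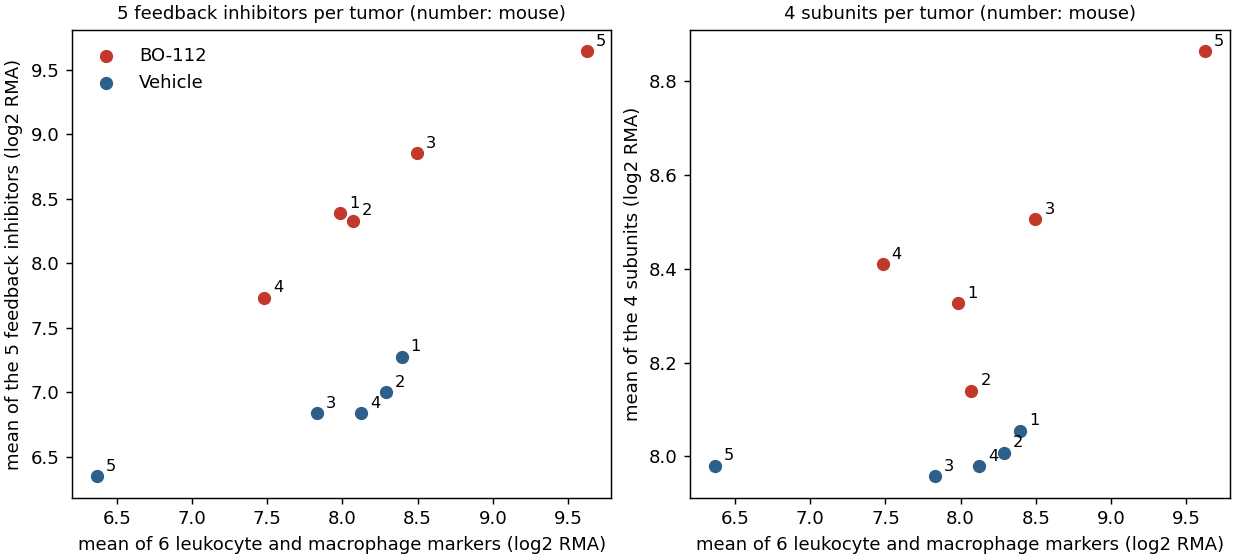
Each point is a tumor (number: mouse), with the mean of 6 leukocyte and macrophage markers on the x axis and the mean of the 5 feedback genes (left) or of the 4 subunit genes (right) on the y axis, all in log2 RMA units. On the y axis of the left panel the BO-112 tumors span 7.73 to 9.64 and the Vehicle tumors 6.35 to 7.28, while on the x axis the groups overlap.

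The mean of the 6 markers, without Ly6c2, was used as a covariate, a choice made once the data had been seen. No fit with Ly6c2 in the mean was run. With this covariate log2 fold changes were 1.996 for Nfkbia (limma adjusted p = 0.000913), 2.04 for Tnfaip3 (limma adjusted p = 0.00186), 1.27 for Birc3 (limma adjusted p = 0.000994) and 0.996 for Nfkbiz (limma adjusted p = 0.00405). Nfkb2 was then at 0.66 (limma adjusted p = 0.0546) and Nfkbie at 0.72 (limma adjusted p = 0.0848). Of 7 leukocyte and macrophage markers 1 rose, Ly6c2 at 3.57, which interferon also induces, and 3 had an unadjusted p under 0.05. Of 7 T cell markers 3 rose (Cd8a at 2.43, Cd8b1 at 2.12 and Cd3g at 1.91) and 6 had an unadjusted p under 0.05. Their list means were 6.31 to 8.74 in BO-112 and 5.25 to 6.14 in Vehicle tumors. On Vehicle arrays Cd3g exceeded the negative control level on 0 of 5 and Cd8a and Cd8b1 on 1 each, so these sizes are uncertain. The 7 neutrophil markers gave 0 passing genes in limma and 5 at an unadjusted p under 0.05, with means of 5.28 to 6.76 against 5.06 to 5.67. Of these 7 markers 3 exceeded the negative control level on no array. The 4 B cell markers exceeded the negative control level on no array. The 8 melanocyte lineage markers had list means of 11.07 to 12.39 in BO-112 and 12.25 to 12.42 in Vehicle tumors, lowest in BO-112 mouse 5, and 0 passed in limma (3 at an unadjusted p under 0.05). The part of T cells, neutrophils and melanoma cells in the values of the 9 genes was not tested.

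A technical measure also moved with the groups. The array contrast, a rank measure of how often positive control probe sets outshine negative control probe sets (1 means always), ran from 0.845 to 0.883 in BO-112 and from 0.867 to 0.891 in Vehicle arrays and was lowest in BO-112 mice 2 and 5. With it as a covariate none of the 9 genes passed in limma, with log2 fold changes of 1.77 for Nfkbia (adjusted p = 0.0975), 1.80 for Tnfaip3 (adjusted p = 0.157), 1.15 for Birc3 (adjusted p = 0.488), 0.87 for Nfkbiz (adjusted p = 0.339), 0.82 for Nfkbie (adjusted p = 0.411) and 0.76 for Nfkb2 (adjusted p = 0.26). In that fit 21 probe sets in all were higher and 6 lower. Without BO-112 mice 2 and 5, the 2 arrays of lowest contrast, 5 of the 9 genes passed in limma, all but Birc3 (limma adjusted p = 0.0715) of the 6.

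The lists around the members were chosen from textbook knowledge of the pathway, with earlier results of these data known. Beside their counts, 2.43% of all probe sets were called higher and 2.79% lower. A list of 8 further IkB, atypical IkB and related genes included some that do not encode IkB proteins. Of these 8 genes 0 passed in limma, and 2 had an unadjusted p under 0.05. These were Bcl3, a nuclear IkB protein, at a log2 difference of 0.82 (limma adjusted p = 0.0711), and Nfkbid at 0.67 (limma adjusted p = 0.14). The kinase list of 15 genes also held Ikbkg, Tab1, Tab2 and Tab3, whose products are partner proteins and not kinases. Of these 15 genes 2 rose. Irak2, a signalling protein of the Toll-like and interleukin-1 receptors, rose by 0.95 (SE 0.18). Ikbke, an IkB kinase relative that interferon and NF-kB induce, rose by 0.88 (SE 0.21). The count was 1 without BO-112 mouse 1, 2 or 3 or Vehicle mouse 2, 3, 4 or 5, and 3 without BO-112 mouse 4 or Vehicle mouse 1. Neither gene overlapped between the groups, with Irak2 at 7.10 to 7.91 in BO-112 and 6.13 to 6.79 in Vehicle tumors.

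Of 24 adaptor and ubiquitin ligase genes 3 rose, Birc2, the cIAP1 gene and a close relative of Birc3, at 1.17 (SE 0.30), the TRAF6 partner Tifa at 0.82 (SE 0.19) and the paracaspase gene Malt1 at 0.69 (SE 0.16). The count was 0 without BO-112 mouse 3 or Vehicle mouse 2, 3, 4 or 5, 1 without BO-112 mouse 1 or Vehicle mouse 1, and 4 without BO-112 mouse 4. Birc2 measured 6.94 to 8.68 in BO-112 and 5.89 to 6.63 in Vehicle tumors. Of 19 genes of deubiquitinases and other brakes 2 rose and 1 fell. The 2 higher became 0 without BO-112 mouse 1 or 2 or Vehicle mouse 2, 3, 4 or 5, 1 without BO-112 mouse 3, 3 without Vehicle mouse 1 and 5 without BO-112 mouse 4. Zc3h12a, which encodes the mRNA-degrading enzyme Regnase-1, rose by 1.05 (SE 0.25), and Tnip1, whose product binds A20 and ubiquitin chains, rose by 0.55 (SE 0.13). The groups overlapped for Zc3h12a, which exceeded the negative control level on 3 of 5 Vehicle arrays, so the size of its rise is uncertain. Commd1, which promotes the turnover of RelA, fell, with a log2 fold change of -0.87 (SE 0.20) and values of 6.49 to 7.59 in BO-112 against 7.74 to 8.08 in Vehicle tumors.

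Among 21 receptors that signal to NF-kB 3 rose, the peptidoglycan sensors Nod1 at 1.51 (SE 0.36) and Nod2 at 0.96 (SE 0.22) and the double-stranded RNA receptor Tlr3 at 0.94 (SE 0.22). The 3 higher became 0 without BO-112 mouse 3 or 5 or Vehicle mouse 2, 4 or 5, 1 without BO-112 mouse 1 or 2 or Vehicle mouse 3, and 6 without BO-112 mouse 4. The lipopolysaccharide receptor gene Tlr4 fell, with a log2 fold change of -0.51 (SE 0.13). Nod2 exceeded the negative control level on 2 of 5 BO-112 arrays and 0 of 5 Vehicle arrays, and Nod1 on 2 of 5 Vehicle arrays, so both sizes are uncertain. Of 40 textbook target genes 15 rose and 0 fell, with a list median of 1.03, beside 2.43% of all probe sets called higher. That count was 6 without Vehicle mouse 2, 3 or 5, 8 without BO-112 mouse 1 or 3 or Vehicle mouse 4, and 23 without BO-112 mouse 4. With the array contrast as a covariate 0 genes of the kinase, adaptor, brake, receptor and target lists were called higher, and with the mouse number as a block 2, both targets. Without BO-112 mouse 2 or without mice 2 and 5 the target count was 10. The largest rises were those of Lcn2, an iron-scavenging protein gene, at 2.69 (SE 0.63), and of the chemokine genes Ccl2 at 2.69 (SE 0.41) and Cxcl2 at 2.45 (SE 0.48). Ccl2 followed the order of Nfkbia in BO-112 tumors, highest in mouse 5 (12.36) and lowest in mouse 4 (9.65), whereas Cxcl2 was highest in mouse 2 (10.31). The medians of the kinase, adaptor, brake and receptor lists were 0.20, 0.15, 0.11 and 0.67. The Vehicle level of Lcn2 was at or below the negative control level on 5 of 5 arrays, and that of Cxcl2 was above it on 2 of 5. Among the other called targets, Nos2, Bcl2a1d, Il6 and Il1a exceeded it on 0 of 5 Vehicle arrays and Il1b and Tnf on 1 of 5. On BO-112 arrays Il1a exceeded it on 1 of 5 and Il6 on 2 of 5. The sizes of these rises are therefore uncertain.

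**Figure D5:**
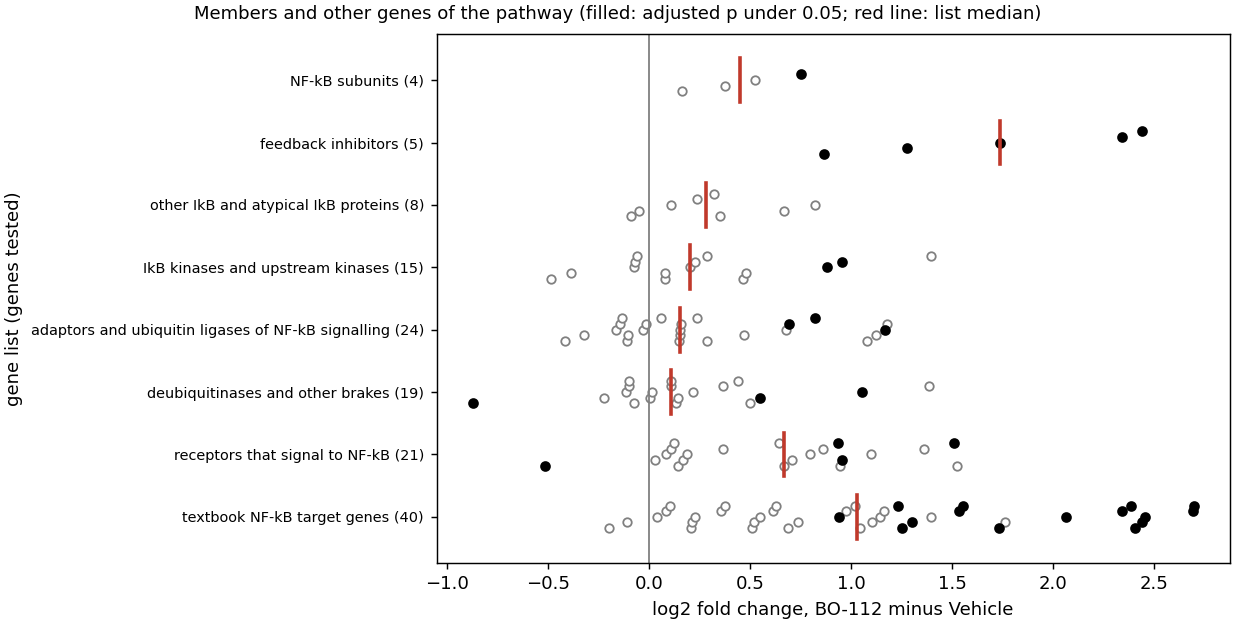
Each point is a gene, placed by its log2 fold change (x axis, BO-112 minus Vehicle) within its list (y axis, number of genes tested), filled where the limma adjusted p was under 0.05, with the list median as a red line. The 5 feedback genes are all filled with a median of 1.74, the kinase and adaptor lists have medians of 0.20 and 0.15, and 15 of the 40 target genes are filled.

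The non-member genes whose values over the 10 arrays were most like the mean standardized profile of the 9 genes were Ch25h, a cholesterol hydroxylase gene, Phf11a, Parp8, the granzyme gene Gzmb and Daxx. Likeness was Pearson's r, at 0.994, 0.992, 0.989, 0.988 and 0.988 in turn over 10 arrays of 2 separate groups, so it is given as a ranking with no test. The arrays share the group difference and the tumor composition.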

How the data were processed

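Whole-tumor RNA from 10 mice was hybridised to Clariom S mouse arrays, 1 per mouse, with groups taken from the sample labels. The deposited table holds log2 values that the authors made with RMA (background correction, quantile normalization and summarization per probe set), with an RMA version not given in the sources used here. The arrays still differed in spread over the transcript probe sets, with interquartile ranges of 2.80 to 3.353 in BO-112 and 3.154 to 3.425 in Vehicle arrays. Medians were 6.301 to 6.428 in BO-112 and 6.249 to 6.321 in Vehicle arrays. The range was lowest in BO-112 mice 2 and 5, whose highest correlations with another array were 0.967 and 0.956. Array data have no read depth, so precision is limited by the 5 arrays of each group. The labels name separate mice.

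Of 29129 probe sets, 6923 controls were set aside. A probe set was tested if it exceeded 4 in at least 3 samples of a group, which left 21792 and removed 414. Groups were compared with limma 3.58.1 in R 4.3.3, with Benjamini-Hochberg adjustment over all tested probe sets and a threshold of 0.05. Gene names came from the platform annotation given for the array. Probe sets without a gene name or with several names were left unnamed, and no entry for Nfkb1 remained. Pairs were tested by exact permutation over mice, and the limma step was tested on simulated data.

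The members and lists were chosen with earlier results of these data known. All members are named. In each other list the text names the 3 passing genes of largest change in each direction, or, without a passing gene, the 2 with the smallest p, plus the 5 genes most like the members. Other list genes are named only where a limit is given. Passing marker genes are given with their list. Alternatives covered each mouse left out, the filter, centring, quantile normalization, array weights, the array contrast, the mouse number as a block, the B-statistic and, added after seeing the data, a leukocyte marker mean.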

Additional observations from a re-analysis of the deposited data

Results flagged for a closer look

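Among 18 groups of 5 values (9 genes, 2 groups), 3 held a tumor far from the others of its group by Dixon's test at a critical value of 0.71, where chance gives about 1 in 20. Birc3 was at 6.408 in Vehicle mouse 5, below the other Vehicle tumors at 7.76 to 8.25. Nfkb2 was at 8.4033 in BO-112 mouse 5, above the other BO-112 tumors at 7.55 to 7.73. Rela was at 9.7398 in BO-112 mouse 2, below the other BO-112 tumors at 10.46 to 10.69.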

How the results depend on the processing

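Of the 9 genes, 6 were higher in BO-112 tumors and 0 lower, and no alternative tried called any lower. The count of higher genes was 0 with the array contrast as a covariate, 3 by the B-statistic and 7 with array weights. Leaving out 1 mouse gave 2 to 6 genes, with 2 without BO-112 mouse 1 or Vehicle mouse 3, 4 or 5. Over all probe sets the 529 higher and 609 lower became 267 and 208 by the B-statistic, and 21 and 6 with the array contrast. Array weights gave 860 higher, omission of BO-112 mice 2 and 5 gave 333 lower, and the leukocyte marker mean, added after seeing the data, gave 308 lower. Leaving out 1 mouse gave 211 to 1249 higher and 135 to 1886 lower. The labels name separate mice, and the mouse number was not taken to pair the samples. With group means taken out, same-number correlations were -0.31 to 0.387, and those between different numbers were not computed. With the mouse number as a replicate block, 0 of the 9 genes, 75 probe sets higher and 27 lower passed. In that setting 0 of the 8 pairs passed, and the smallest adjusted permutation p reached was 0.125. With only 5 mouse numbers no pair could pass there, so that setting cannot decide on the pairs. Of the pairs, 3 passed, and 3 to 4 did with 1 mouse left out, 4 without Vehicle mouse 5. The pairs were not run with the array contrast, the array weights or the leukocyte marker mean. The difference between the changes of Rel and Rela reversed to -0.1344 without BO-112 mice 2 and 5. The cause of these differences was not tested. A mean over several probe sets of a gene gave no values, since each of the 9 genes has 1 with a single gene name.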
